A study of Homo sapiens with 6 samples.

Results

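Integrins are receptors made of an alpha and a beta subunit that join cells to the extracellular matrix, and the pair decides which ligand is bound. The α1β1 and α2β1 pairs bind collagens, α3β1 binds laminins, α5β1 binds fibronectin, and αv with β5, β6 or β8 binds proteins that carry an RGD motif. The αvβ6 and αvβ8 receptors are known for binding latent TGFβ and releasing or activating it. In mammary epithelium the α6β4 pair builds hemidesmosomes, while the subunits described here act outside them, in focal adhesions and in TGFβ activation.

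The expression of 9 genes was examined, ITGA1, ITGA2, ITGA3, ITGA5, ITGAV, ITGB1, ITGB5, ITGB6 and ITGB8, which were taken by name from the 19198 genes of the deposited table and were all present in it. RNA-Seq was performed on MCF10A, an established line of breast epithelial cells that does not form tumours and that the labels call luminal ductal cells from fibrocystic disease. All 6 samples were grown with 5% horse serum. The 3 samples with growth factors also received hydrocortisone (0.5 µg/ml), cholera toxin (100 ng/ml), recombinant hEGF (20 ng/ml) and human insulin (10 µg/ml), and the 3 samples without growth factors received none of these, so the 4 agents cannot be told apart. The study used growth factor removal to ask how mammary epithelial cells lose their epithelial form. The time of RNA harvest is not given in the sources used here.

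Values are normalized counts, the reads of a gene divided by a factor for the depth of the sample, and they are not divided by gene length. The depth was 7472418 to 28672630 reads on genes per sample, and 3 reads, taken as the floor, equal 1.76 to 6.71 normalized counts. Every pair of replicates differed by more than sampling noise, with a chi-square of 33.3 to 376 per gene. Sample 3 with growth factors was the farthest from its group, with 41.6% of 16988 genes at least 2-fold from the mean of the other samples, and without growth factors it was sample 1, with 18.2%. Luminal KRT8 and KRT18 and basal KRT5 and TP63 were detected in all 6 samples. Of the genes listed as markers of leukocytes and endothelial cells, PTPRC and VWF stayed between 0 and 13.8 normalized counts, with PTPRC at 0.0 to 2.0 with and 10.1 to 13.8 without growth factors, while CD14 reached 882, PECAM1 1582 and CDH5 119. The labels do not say whether replicates came from separate cultures, so p-values measure the spread between these samples, which may be technical.

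Removal of growth factors was accompanied by opposite changes in subunits that share αv as their partner. ITGB5 rose 4.28-fold and ITGB8 fell 4.96-fold. These were the only ones of the 9 genes that passed the test, which was limma on log2(normalized count + 1) with a Benjamini-Hochberg adjusted p under 0.05 over all genes and a change of at least 2-fold. The collagen, laminin, fibronectin and shared β1 subunits had positive log2 fold changes between 0.56 and 1.49 and did not pass. Fold changes are on the log2(normalized count + 1) scale, without minus with growth factors, n = 3 in each group. In bulk samples, fewer cells of a type and less RNA per cell cannot be told apart.

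Among all 16988 genes tested, 6.33% were called, 4.36% as higher and 1.97% as lower without growth factors. Of the 9 integrin genes, 1 was called higher and 1 lower. The groups did not overlap in 5 of the 9, with 4 above and 1 below, against 25.6% of all genes tested in either direction. The median log2 fold change of the 9 genes was 1.03, with 7 positive and 2 negative, and that of all genes tested was -0.03.

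**Figure D1:**
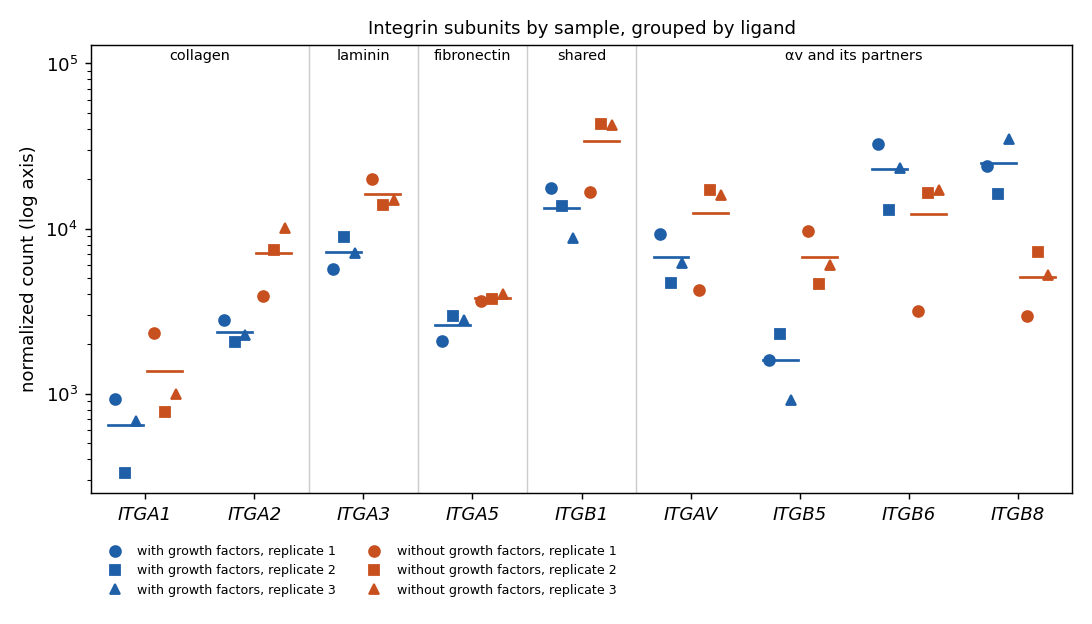
Normalized counts (log axis) of the 9 integrin genes in each of the 6 samples, grouped by ligand, with blue for samples with growth factors, orange for samples without, a marker for each replicate number and a line at the group mean. The 3 orange points of ITGB5 lie above and those of ITGB8 below all blue points, whereas for ITGB1, ITGAV and ITGB6 the depleted replicate 1 lies apart from depleted replicates 2 and 3.

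The stretch of DNA before the transcription start is shown for ITGB5, the subunit that rose, and for ITGB6, the β subunit with the highest level per length with growth factors, because the composition of their promoters is unlike. Sequences are from RefSeq on GRCh38.p14, 5′ to 3′ on the strand of the gene, and capitals mark GC boxes, the letters GGGCGG on either strand. The ITGB5 stretch is chr3:124887366-124887515 on the minus strand and ends at the base before the start of the canonical transcript. It is 1 of 3 entries of ITGB5. The others have starts 319 and 14053 bases from the canonical one, with 64.7% and 56.0% GC and 15 and 8 CpG. The ITGB6 stretch is chr2:160200314-160200422 on the minus strand and leaves out 41 bases next to the canonical start, which lie in the first exon of other ITGB6 transcripts in Gencode v44.
ITGB5: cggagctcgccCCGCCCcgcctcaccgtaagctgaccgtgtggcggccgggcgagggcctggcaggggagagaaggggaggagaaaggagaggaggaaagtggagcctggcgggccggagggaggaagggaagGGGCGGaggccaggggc
ITGB6: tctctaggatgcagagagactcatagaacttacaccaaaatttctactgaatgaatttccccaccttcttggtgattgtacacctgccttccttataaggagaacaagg

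The ITGB5 stretch held 12 CpG and 2 GC boxes at 73.3% GC, and the ITGB6 stretch held 0 CpG and 0 GC boxes at 41.3% GC. Over the full 150 bases before its start, ITGB6 had 38.0% GC, 0 CpG and 0 GC boxes. Over the same 150 bases, 35116 RefSeq promoters had a median of 60.0% GC and 7 CpG, and 10.9% had 0 CpG. ITGB8, the subunit that fell, resembled ITGB5 more than ITGB6 in these features, with 70.7% GC, 10 CpG and 1 GC box in its 150 bases, which lie wholly in a first exon of another ITGB8 transcript and are not printed. Of the 8 integrin genes with an entry, 4 held a GC box, as did 36.8% of all promoters. None of the 8 held the other motifs searched on both strands, the RUNX motif as TGTGGT (found in 6.59% of all promoters), the AP-1 motif as TGANTCA (4.17%) and the TEAD motif as ACATTCC (1.88%). ITGA3 had no entry. These matches describe letters in a window and are not binding data.

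The collagen receptors are encoded by ITGA1 and ITGA2, neighbours on chromosome 5 (52787916 to 52959209 and 52989340 to 53094779, hg38, plus strand). ITGA2, the collagen receptor subunit typical of epithelial cells, had 2811, 2050 and 2278 normalized counts in the samples with growth factors and 3883, 7431 and 10066 without. All depleted samples were above all samples with growth factors, with replicate 1 the lowest of the depleted. Its log2 fold change was 1.49 (SE 0.39, 95% interval 0.60 to 2.38), and with a limma adjusted p of 0.0619 it did not pass. Without depleted replicate 1 it was 1.87 with a limma adjusted p of 0.0218.

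ITGA1, the collagen receptor subunit better known from mesenchymal cells, was the least abundant of the 9 genes. It had 934, 332 and 682 normalized counts in the samples with growth factors and 2322, 772 and 999 without. Here depleted replicate 1 was the highest sample and the groups overlapped. The log2 fold change of 1.03 had an interval of -0.14 to 2.19 and a limma adjusted p of 0.315. Exons of ITGA1 share 1070 bases on the same strand with PELO and RPL17P21, so reads there cannot be assigned with certainty. The log2 ratio of ITGA1 to ITGA2 was -1.98 ± 0.56 (SD, n = 3) with and -2.45 ± 1.48 without growth factors, and the difference of -0.46 was smaller than the spread (exact two-sided permutation test, p = 0.8).

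ITGA3 (chromosome 17, 50055968 to 50090481, plus strand) encodes the α subunit of the laminin receptor α3β1, which binds laminin-332 in epithelial cells. Its normalized counts were 5697, 8925 and 7068 with growth factors and 19975, 13846 and 14831 without. The groups did not overlap and the lowest depleted sample was replicate 2. This gave a log2 fold change of 1.17 (SE 0.35, interval 0.38 to 1.96), with a limma adjusted p of 0.0921.

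ITGA5 (chromosome 12, 54395261 to 54419266, minus strand) encodes the α subunit of the main fibronectin receptor α5β1. It had 2078, 2958 and 2780 normalized counts in the samples with growth factors and 3650, 3734 and 4014 without, the narrowest depleted group of the 9 genes relative to its mean. The groups did not overlap, but the log2 fold change of 0.56 (SE 0.27, interval -0.06 to 1.18) was below 2-fold and had a limma adjusted p of 0.305. Relative to ITGA3, ITGA5 was lower in each depleted sample than in any sample with growth factors. The log2 ratio was -1.46 ± 0.12 (SD, n = 3) with and -2.08 ± 0.33 without, a difference of -0.61 with p = 0.1, the smallest an exact permutation test of 3 against 3 can give (adjusted 0.175 over the 7 ratios compared).

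ITGB1 (chromosome 10, 32887273 to 33005792, minus strand) encodes β1, the partner of all of the α subunits above. Its normalized counts were 17544, 13792 and 8815 with growth factors and 16647, 42844 and 42445 without. Depleted replicates 2 and 3 were above every sample with growth factors, whereas replicate 1 lay within their range. A log2 fold change of 1.28 (SE 0.51, interval 0.11 to 2.44) had a limma adjusted p of 0.206, and without depleted replicate 1 it was 1.73 with an adjusted p of 0.0936. The ratio of ITGB1 to ITGA3 did not differ beyond its spread, with a log2 difference of 0.10 (exact permutation p = 0.9), and its sign changed in several fits that left out a sample.

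αv, encoded by ITGAV (chromosome 2, 186590010 to 186680901, plus strand), pairs with β1, β3, β5, β6 and β8. It had 9332, 4689 and 6209 normalized counts in the samples with growth factors and 4258, 17231 and 16054 without. Depleted replicate 1 was the lowest of all 6 samples and depleted replicates 2 and 3 were the highest. The log2 fold change of 0.71 had an interval of -0.60 to 2.01 and a limma adjusted p of 0.566, and it was 1.36 without depleted replicate 1 (adjusted p = 0.129).

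ITGB5 (chromosome 3, 124761948 to 124901418, minus strand) encodes β5, whose pair with αv binds vitronectin and sits in focal adhesions. The 3 samples with growth factors had 1602, 2316 and 914 normalized counts, and the 3 without had 9707, 4589 and 5979. The lowest depleted sample was above the highest sample with growth factors. The log2 fold change was 2.10 (SE 0.43, interval 1.13 to 3.07) with a limma adjusted p of 0.0238.

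ITGB8 (chromosome 7, 20330702 to 20415754, plus strand) encodes β8, whose pair with αv presents latent TGFβ. It had 24041, 16174 and 34875 normalized counts in the samples with growth factors and 2966, 7193 and 5208 without. The highest depleted sample was below the lowest sample with growth factors. Its log2 fold change was -2.31 (SE 0.45, interval -3.35 to -1.27) with a limma adjusted p of 0.0211.

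The directions of ITGB5 and ITGB8 were the same in each fit that left out 1 sample, and both calls depended on which sample was left out. Both passed without sample 2 or without sample 3 with growth factors. The limma adjusted p of ITGB5 rose to 0.0774 without sample 1 with growth factors and to 0.0611, 0.052 and 0.0837 without depleted sample 1, 2 or 3, and that of ITGB8 to 0.0701, 0.0583, 0.0501 and 0.0876.

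ITGB6 (chromosome 2, 160099667 to 160200313, minus strand) encodes β6, an epithelial subunit whose pair with αv activates latent TGFβ. Normalized counts were 32733, 12875 and 23193 with growth factors and 3171, 16533 and 17033 without. Depleted replicate 1 was the lowest of the 6 samples, and depleted replicates 2 and 3 lay within the range of the samples with growth factors. The log2 fold change of -1.15 had an interval of -2.74 to 0.43 and a limma adjusted p of 0.418, and without depleted replicate 1 it was -0.35 (adjusted p = 0.808). Exons of ITGB6 share 966 bases with ENSG00000285155 on the same strand.

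**Figure D2:**
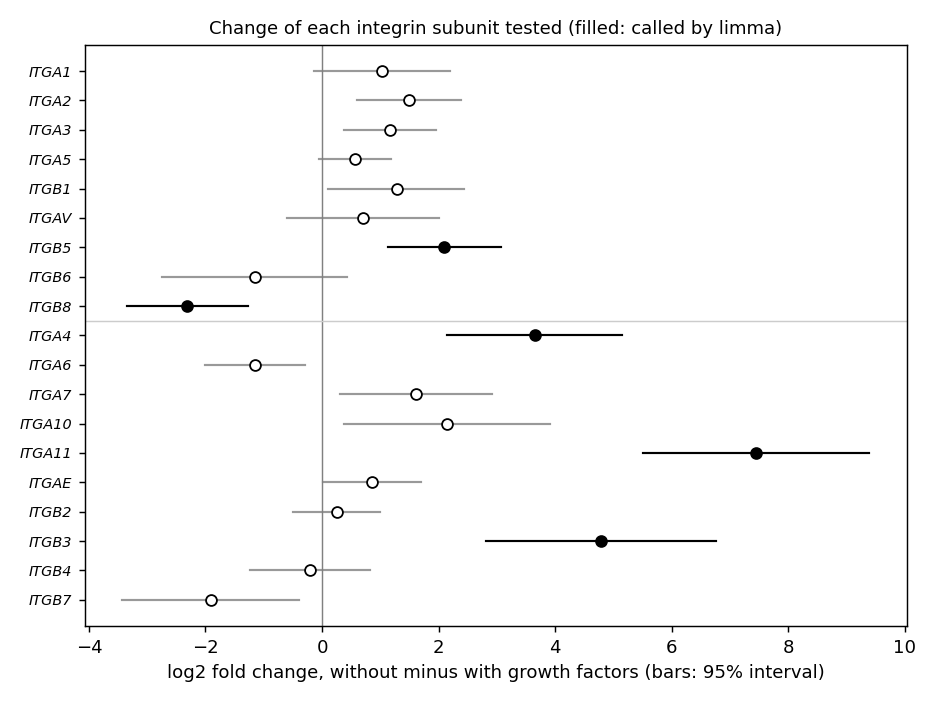
Log2 fold change without minus with growth factors (x axis, on log2(normalized count + 1), with 95% intervals) of each integrin subunit tested by limma, the 9 genes described here above the line and the 10 other subunits under it, filled where called. ITGB5 at 2.10 and ITGB8 at -2.31 lie on opposite sides of 0, and the fitted values of ITGA11 and ITGB3 rest on 4 or fewer reads in each sample with growth factors and depend on the pseudocount.

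The balance among the αv partners was compared as ratios within each sample, which do not depend on the scaling between samples. The log2 ratio of ITGB5 to ITGB8 was -3.91, -2.80 and -5.25 with growth factors and 1.71, -0.65 and 0.20 without. Every depleted sample was above every sample with growth factors, and the mean rose from -3.99 ± 1.23 to 0.42 ± 1.19 (SD, n = 3), which is 21.2-fold (exact permutation p = 0.1, the smallest possible, adjusted 0.175). The log2 difference of 4.41 was 3.76 without depleted replicate 1, 3.78 without sample 3 with growth factors and 5.00 without sample 2 with growth factors.

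The ratio of ITGB5 to ITGB6 was also higher in all depleted samples, with a mean log2 ratio of -3.83 ± 1.18 with and -0.58 ± 1.91 without growth factors, a difference of 3.25 (exact permutation p = 0.1). Depleted replicate 1 stood apart at 1.61, beside -1.85 and -1.51 in replicates 2 and 3, and without it the difference was 2.15. ITGB8 relative to ITGB6 overlapped between the groups, with a difference of -1.16 (p = 0.2, exact permutation test).

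ITGAV and ITGB6 had widely spread counts in the depleted samples but a narrow ratio. The log2 ratio of ITGAV to ITGB6 was -1.81, -1.46 and -1.90 with growth factors and 0.42, 0.06 and -0.09 without. The difference of 1.86 between -1.72 ± 0.23 and 0.13 ± 0.26 (SD, n = 3) is several times either SD, although the exact permutation p cannot go below 0.1. In depleted replicate 1, where both genes were at their lowest, the ratio was like that of replicates 2 and 3.

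**Figure D3:**
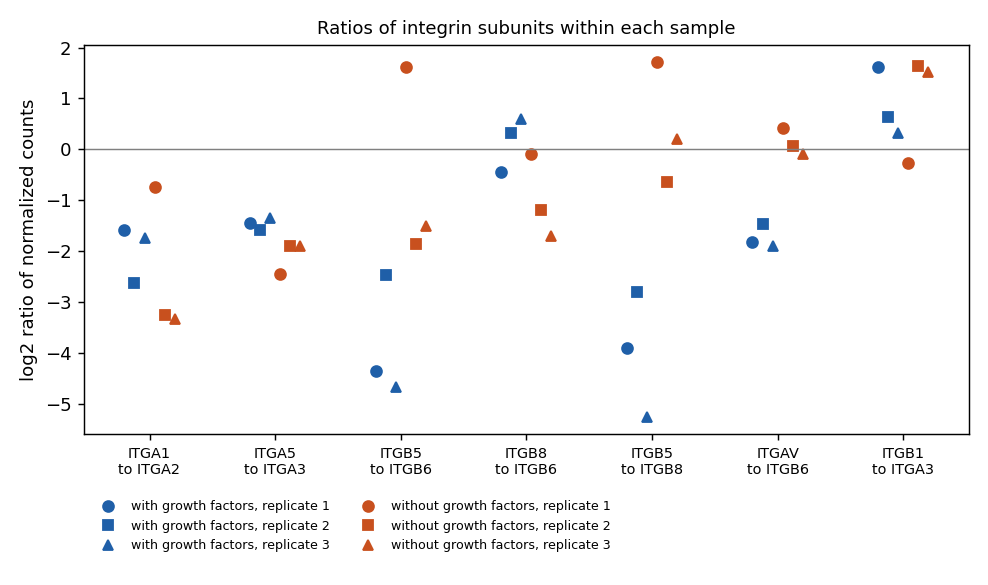
Log2 ratio of normalized counts (y axis) of 7 pairs of integrin genes in each of the 6 samples, blue with and orange without growth factors, with a marker for each replicate number. The groups do not overlap for ITGA5 to ITGA3, ITGB5 to ITGB6, ITGB5 to ITGB8 and ITGAV to ITGB6, and the distance is longest for ITGB5 to ITGB8, at 4.41.

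Levels of different genes were compared as normalized counts per kb of exon, since long transcripts collect more reads. Per kb of all exons merged, ITGB6 was the highest of the 20 integrin subunits in the table with growth factors, at 3964.3 ± 1716.8 (SD, n = 3), followed by ITGB8 at 1651.5 ± 619.5. Next came the hemidesmosome subunits ITGB4 and ITGA6 at 1500.4 ± 616.6 and 1496.6 ± 326.5, then ITGB1 at 919.2 ± 300.7 and ITGA3 at 737.6 ± 165.3. ITGB8, ITGB4 and ITGA6 did not differ beyond their spread, nor did ITGB1 and ITGA3. By this length ITGA5, ITGAV, ITGA2 and ITGB5 lay lower, between 247.2 and 352.9 per kb, and ITGA1 was at 35 ± 16.3.

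Without growth factors the order per kb was ITGB1 at 2333.5 ± 1030.9, ITGB6 at 2116.9 ± 1359.2, ITGA3 at 1654.5 ± 335.8, ITGB4 at 1306.5 ± 585.7 and ITGB5 at 1037.3 ± 406.2 (SD, n = 3), and these neighbours overlapped in their spread. ITGA2 (902.6 ± 393.0), ITGA6 (694.7 ± 282.8), ITGAV (647.2 ± 371.0) and ITGA5 (514.6 ± 25.8) came next. ITGB8 moved from rank 2 to rank 10, at 337.9 ± 139.5 per kb. The length used matters for ITGB1, whose merged exons span 14561 bases while its canonical transcript has 3735, and for ITGAV, with 19336 and 7039. Per kb of the canonical transcript ITGB1 was at rank 2 with growth factors and rank 1 without, ITGB6 at rank 1 and rank 3, and ITGAV, at 958.0 ± 336.3 and 1777.8 ± 1019.2, at rank 7 and rank 4.

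As shares of the summed level per kb of merged exons of ITGB3, ITGB5, ITGB6 and ITGB8, the partners of αv other than β1, ITGB5 made up 3.28%, 9.75% and 2.17% with growth factors and 66.6%, 17.4% and 21.7% without. The share of ITGB8 was 21.2%, 29.3% and 35.7% with and 8.75%, 11.7% and 8.13% without. The groups did not overlap for either subunit. ITGB6 held 75.5%, 61% and 62.1% with growth factors, then 24.5% in depleted replicate 1 and 70.5% and 69.7% in depleted replicates 2 and 3. It was thus the largest share in every sample but depleted replicate 1, where ITGB5 was the largest.

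**Figure D4:**
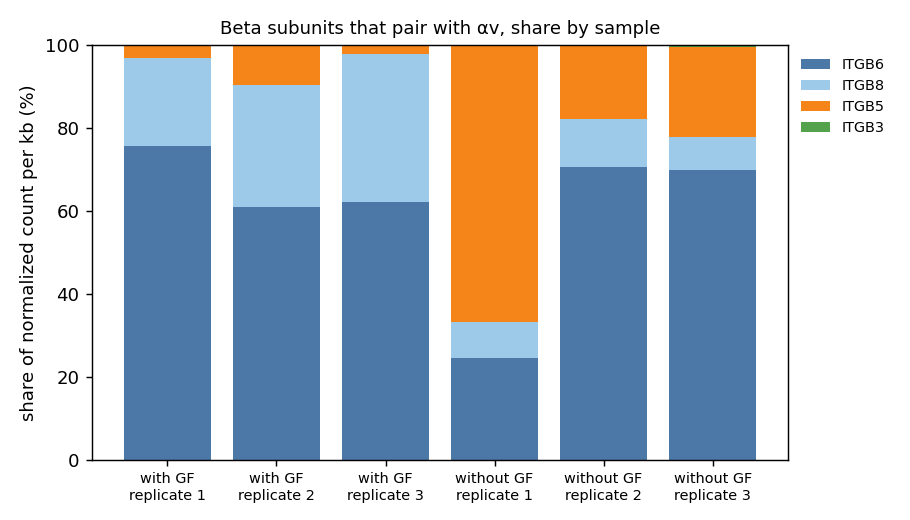
Share (%) of each β subunit in the summed normalized count per kb of merged exons of ITGB3, ITGB5, ITGB6 and ITGB8, with 1 bar for each sample. The orange ITGB5 share is at most 9.75% with growth factors and at least 17.4% without, and ITGB3 stays under 0.5% in all samples.

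Among the α subunits that can pair with β1, αv included, ITGA6 had the largest share of the summed level per kb of merged exons with growth factors. It was 45.1% ± 5.36 (SD, n = 3) with and 15% ± 5.93 without. ITGA3 held 22.5% ± 4.51 with and 35.7% ± 6.72 without, and was the largest share in each depleted sample. By canonical transcript length ITGA6 and ITGA3 held 33.1% ± 4.66 and 28.7% ± 5.86 with growth factors, and 10% ± 4.33 and 41.5% ± 9.31 without. By this length ITGA3 (30.9%) exceeded ITGA6 (27.8%) in sample 3 with growth factors. ITGAV held 10.7% ± 3.81 with and 14.1% ± 8.26 without by merged exons, and 18.7% ± 6.51 and 22.1% ± 12.5 by canonical transcript length. ITGA2 held 9.24% ± 1.79 and 19.5% ± 8.21 by merged exons. By merged exons the share of ITGA5 was 10.8% ± 2.32 and 11.1% ± 0.51, a difference smaller than either SD. By canonical transcript length it was 12% ± 2.44 with and 11.2% ± 0.178 without, a difference of opposite sign. ITGA6 also pairs with β4, and these shares are of RNA and not of receptors.

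The other 17 human integrin subunits were read from the same fit. Of these, 11 were in the table, 10 had a mean of at least 10 normalized counts, and 3 were called, all higher without growth factors. Of all genes tested, 4.36% were called higher. With growth factors ITGA11 and ITGB3 had means of 0.656 and 1.92. They reached the minimum mean of 10 only through the depleted samples, so they could only be called higher. ITGA11, the α subunit of a collagen receptor of fibroblasts, had 0.0, 0.0 and 2.0 normalized counts in the samples with growth factors and 794, 159 and 123 without (limma adjusted p = 0.00217). ITGB3, a partner of αv, had 1.3, 0.6 and 3.9 with and 21.1, 123 and 134 without (adjusted p = 0.0151), and ITGA4, which binds fibronectin with β1, had 11.3, 7.6 and 40.3 with and 318, 162 and 165 without (adjusted p = 0.0149). Of the 10 tested, 6 lay above and 2 below without overlap between groups, against 25.6% of all genes tested in either direction. The 3 called genes were among the 6 above. The depleted means of these 3 genes, 13.6 to 33 per kb of merged exons, were under that of ITGA1, 73.6.

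ITGA11 passed in each fit that left out 1 sample. ITGA4 and ITGB3 did not pass without sample 1 with growth factors (limma adjusted p 0.0599 and 0.0573) or without depleted sample 2 (0.0581 and 0.0873) or 3 (0.0558 and 0.0828). Of the hemidesmosome subunits, ITGA6 had 10681, 11751 and 7554 normalized counts in the samples with growth factors and 6817, 3668 and 3434 without (log2 fold change -1.15, adjusted p = 0.121). ITGB4 had 6067, 9967 and 14399 with and 13337, 7270 and 5894 without, with a log2 fold change of -0.20 (adjusted p = 0.86) whose sign changed when certain samples were left out.

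Cytoplasmic proteins that join integrins to actin were examined as a list of 25 genes, all tested, of which 6 were called higher and 0 lower without growth factors. The median log2 fold change was 0.73. By role, 1 of 5 activators, 0 of 2 inhibitors, 2 of 10 scaffolds, 3 of 5 genes of the ILK complex and 0 of 3 kinases were called. This compares with 4.36% of all genes called higher. LIMS2, of the ILK complex, had a mean of 3.22 normalized counts with growth factors. It reached the minimum mean of 10 only through the depleted samples, so it could only be called higher.

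TLN2, a talin that binds β tails and activates integrins, rose from 257, 167 and 298 to 1221, 2559 and 2869 normalized counts (log2 fold change 3.15, limma adjusted p = 0.00349). The more abundant TLN1 had 4170, 4424 and 5550 with and 14957, 9265 and 10905 without (1.29, adjusted p = 0.0539). The kindlin gene FERMT2 overlapped between groups with a log2 fold change of 0.52 (adjusted p = 0.561). The inhibitors ITGB1BP1 and SHARPIN, which keep integrins inactive, had log2 fold changes of 0.73 and 0.40 and did not pass (adjusted p 0.338 and 0.562).

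Vinculin, which strengthens the link of talin to actin, is encoded by VCL and rose from 3715, 3584 and 3626 to 9957, 15278 and 16633 normalized counts (log2 fold change 1.90, limma adjusted p = 0.0108). TGFB1I1, a paxillin relative also called HIC-5, rose from 85.2, 213 and 195 to 1185, 1467 and 2301 (3.37, adjusted p = 0.00353). Both were higher in each depleted sample than in any sample with growth factors. The tensin gene TNS3 had a log2 fold change of -0.02 (interval -1.20 to 1.17), whose sign depended on the scaling.

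The ILK complex binds β tails and recruits actin regulators. PARVA rose from 846, 796 and 741 to 3348, 2257 and 2229 normalized counts (log2 fold change 1.69, limma adjusted p = 0.00926). ILK itself rose from 1280, 1192 and 933 to 2503, 2695 and 4863 (1.51, adjusted p = 0.0332, or 0.0727 with the replicate number as a block), and the low-count LIMS2 from 3.8, 0.0 and 5.9 to 51.3, 38.7 and 85.0 (adjusted p = 0.0232, or 0.0523 with edgeR). LIMS1, the abundant paralogue of LIMS2, had 2013, 1175 and 1183 with and 1677, 6546 and 6732 without, with depleted replicate 1 inside the range of the samples with growth factors (adjusted p = 0.144). The kinases PTK2, encoding FAK, and PTK2B had log2 fold changes of 0.37 and -1.07 and did not pass (adjusted p 0.497 and 0.122).

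TLN2, TGFB1I1 and PARVA passed in every fit that left out 1 sample. VCL did not pass without depleted sample 2 or 3 (limma adjusted p 0.0671 and 0.0677). ILK and LIMS2 also did not pass without those samples (adjusted p 0.0915 and 0.139 for ILK, 0.0801 and 0.115 for LIMS2) or without sample 1 with growth factors (0.0808 and 0.0571). In addition ILK did not pass without sample 2 with growth factors (0.0811), nor LIMS2 without depleted sample 1 (0.0565).

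Genes that encode ligands of these integrins, with the TGFβ and LTBP genes, were counted from a list of 36. Of these, 29 were tested, 11 were called higher and 1 lower, with a median log2 fold change of 2.18. Of all genes tested, 4.36% were called higher and 1.97% lower. Among ligands of the collagen receptors, 3 of 5 were called, COL1A1, COL1A2 and COL3A1. COL1A2 rose from 138, 35.7 and 19.7 to 13005, 5971 and 4248 normalized counts (log2 fold change 7.19, limma adjusted p = 0.0012), COL1A1 by 4.40 and COL3A1 by 7.19 on the log2 scale. The type IV collagen genes COL4A1 and COL4A2 had log2 fold changes of 3.03 and 2.36 that did not pass (adjusted p 0.129 and 0.139). COL4A1 passed with the replicate number as a block (adjusted p = 0.0297) and with edgeR (0.0478), and COL4A2 with neither (0.0602 and 0.0595). Both passed with DESeq2 (adjusted p 1.2e-05 and 2.6e-04), and neither did with the transcript length and GC correction (limma adjusted p 0.162 and 0.192). In both, depleted replicate 1, at 1049 and 2342 normalized counts, lay near the samples with growth factors, whereas replicates 2 and 3 lay between 18862 and 26394. Without depleted replicate 1 both passed, with log2 fold changes of 4.44 and 3.47 (adjusted p 0.00138 and 0.00259).

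Of 9 laminin genes tested, 0 were called higher and 1 lower, against 4.36% and 1.97% of all genes tested. LAMA3, the α chain of laminin-332 and thus part of the ligand of α3β1, fell from 12818, 11464 and 10122 to 1167, 3659 and 3354 normalized counts (log2 fold change -2.23, limma adjusted p = 0.0247), a direction opposite to that of ITGA3. LAMB3, which encodes the β chain of laminin-332, overlapped between groups, with a log2 fold change of -0.43. The LAMA3 call was lost without sample 1 or 2 with growth factors (adjusted p 0.0898 and 0.0716) or without depleted sample 3 (0.0566).

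Among fibronectin and other RGD ligands, 6 of 8 were called, all higher, against 4.36% of all genes tested called higher. FBN2 and EDIL3 had means of 0.328 and 9.06 normalized counts with growth factors. They reached the minimum mean of 10 only through the depleted samples, so they could only be called higher. FN1, encoding fibronectin, rose from 5339, 3256 and 10459 to 48562, 159901 and 117025 normalized counts (log2 fold change 4.10, limma adjusted p = 0.00652), beside the log2 fold change of 0.56 for its receptor subunit ITGA5 that did not pass. FBN1, encoding fibrillin-1, rose by 3.88, TNC, encoding tenascin-C, by 3.15, MFGE8 by 1.78 and EDIL3 by 9.56 on the log2 scale, the last 2 being ligands of αvβ5. FBN2 had 0.0, 0.0 and 1.0 normalized counts with and 15.6, 22.9 and 22.4 without (adjusted p = 0.0123). THBS1, encoding thrombospondin-1, had a log2 fold change of 2.65 and did not pass (adjusted p = 0.0741). The remaining RGD ligand gene, NPNT, named after its values were seen, went from 127, 82.6 and 90.5 to 4.6, 24.9 and 26.8 (log2 fold change -2.64, adjusted p = 0.0627) and did not overlap between groups.

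FN1, FBN1, EDIL3, COL1A1, COL1A2 and COL3A1 passed in every fit that left out 1 sample. FBN2 did not pass without depleted sample 2 or 3 (limma adjusted p 0.0859 and 0.0763). TNC and MFGE8 did not pass without those samples (adjusted p 0.0787 and 0.0762 for TNC, 0.139 and 0.153 for MFGE8) or without sample 1 or 2 with growth factors (0.0738 and 0.0694 for TNC, 0.0718 and 0.0849 for MFGE8). THBS1 passed without sample 1 with growth factors (0.044).

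Latent TGFβ, the ligand of αvβ6 and αvβ8, is made of a TGFβ precursor often joined to an LTBP protein. Of the TGFβ and LTBP genes, 2 of 7 were called, both higher, against 4.36% of all genes tested called higher. The list holds these genes by name, so a call does not show that the product is a ligand of these integrins. Whether each LTBP protein joins a precursor was not tested. TGFB2 had 930, 503 and 430 normalized counts in the samples with growth factors and 1369, 10403 and 14469 without (log2 fold change 3.33, limma adjusted p = 0.047), with depleted replicate 1 only slightly above the samples with growth factors. When samples were left out in turn, it passed in 1 fit of 6, the one without depleted replicate 1 (adjusted p = 0.00253), and had 0.0699 to 0.165 in the others. The precursor of TGFβ2 lacks the RGD motif through which these integrins bind the precursors of TGFβ1 and TGFβ3. The genes of the latter, TGFB1 and TGFB3, were named after their values were seen. They had log2 fold changes of 1.62 and 0.23 and did not pass (limma adjusted p 0.129 and 0.859). LTBP2 rose from 645, 475 and 1138 to 11563, 6926 and 5364 (3.42, adjusted p = 0.00291).

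**Figure D5:**
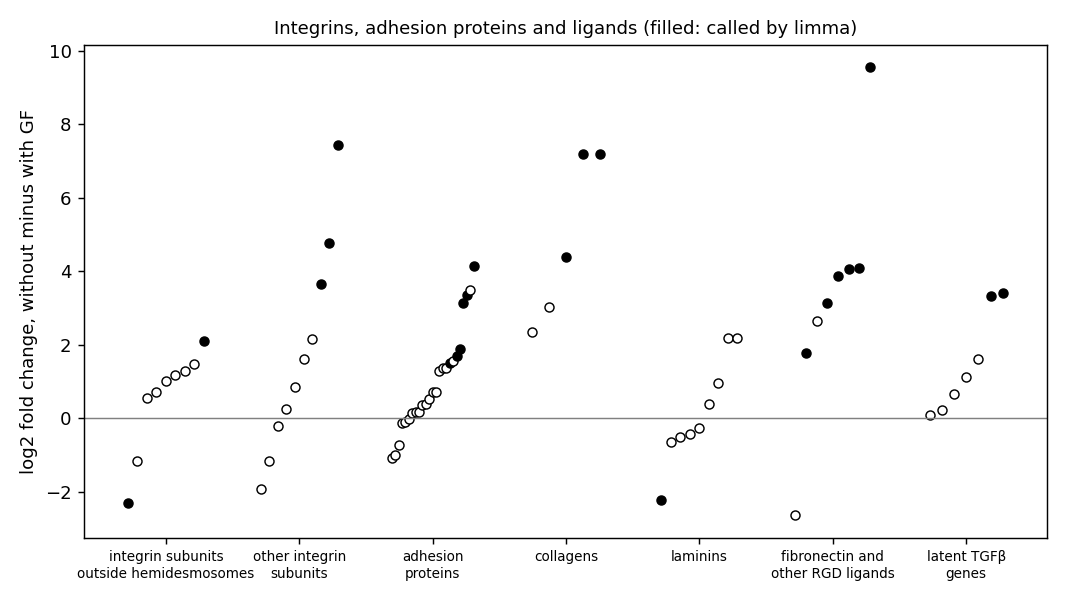
Log2 fold change without minus with growth factors (y axis, on log2(normalized count + 1)) of each tested gene of the integrin, adhesion protein and ligand lists, sorted within a list and filled where called by limma. All tested points, called or not, lie between 2.36 and 7.19 in the collagen list and between -2.64 and 9.56 in the RGD ligand list. Those of the integrin genes described here lie between -2.31 and 2.10.

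Mesenchymal marker genes, 6 in all of which COL1A1 and COL1A2 are also in the collagen list, moved with the groups. All 5 tested were called higher, whereas of all genes tested 4.36% were called higher and 1.97% lower. The summed level of the list was 571 to 857 normalized counts in the samples with growth factors and 27668 to 65448 without. The luminal list, with 0 of 7 called higher and 1 lower (KRT19), summed to 8935 to 18492 and 18326 to 31554. In it KRT8 and KRT18 had positive log2 fold changes and the other 5 genes negative ones. The basal list, with 0 of 4 higher and 1 lower (TP63, log2 fold change -4.18, limma adjusted p = 0.027), summed to 20518 to 48741 and 20786 to 138825. In it KRT5 and TP63 had negative log2 fold changes. Those of KRT14 and KRT17 were positive, at 2.69 and 2.44, and did not pass (limma adjusted p 0.184 and 0.0877). KRT17 made up most of the highest sum, with 123480 in depleted replicate 3. The leukocyte list, of which 2 of 4 genes were in the table, summed to 272 to 884 and 86.5 to 656, most of it CD14, with its defining PTPRC at 0 to 13.8. The endothelial list, with CDH5 called higher among 2 genes tested, summed to 100 to 1009 and 240 to 1610, with VWF at 0.6 to 13.4. CDH5 and the mesenchymal marker PDGFRB had means of 5.93 and 6.95 with growth factors. Both reached the minimum mean of 10 only through the depleted samples, so they could only be called higher. The part of other cell types in the integrin values was not tested.

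For the genes whose groups did not overlap without being called, and for ITGB6, the 3 protein-coding genes with the most similar pattern were found among 10582 genes by Pearson correlation of log2 values over the 6 samples. They were RTN2 (0.997), TCN2 and SH3BP5L for ITGA2, STX2 (0.995), TWIST2 and ZNF574 for ITGA3, CTXN1 (0.997), SPINDOC and BCAR1 for ITGA5, and APLP2 (0.989), CDH3 and HBP1 for ITGB6. All of them were measured in the same libraries, and with 6 samples in 2 groups such values describe the pattern only.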

How the data were processed

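RNA-Seq of MCF10A cells, 3 samples with and 3 without growth factors, was available as 1 table of normalized counts. Per the labels and the methods of the study, the authors depleted ribosomal RNA, prepared stranded libraries, sequenced single-end reads, trimmed them with cutadapt 1.6, used TopHat2 to align them to hg38 and HTSeq to count them over Gencode genes, and normalized with DESeq2 1.8.1. The deposited values are a signal, the reads of a gene divided by the size factor of the sample, and whole reads were recovered for 100.0% of values (tolerance 0.001). How genes with few reads were left out is not given in the sources used here, and in 3 or more samples each listed gene has 3 reads or more. Columns of no sample numbered 0.

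Here, gene names and positions came from Gencode v44 on hg38, which named 18913 of 19198 identifiers. Differences were tested with limma 3.58.1 in R 4.3.3 (linear model, eBayes with trend) on log2(normalized count + 1) for 16988 genes with a mean of at least 10, with Benjamini-Hochberg adjustment over all of them. Ratios of genes were compared with exact two-sided permutation tests. The procedure was tested on simulated data. Levels per kb used the merged exons of Gencode v44. Promoter sequences came from RefSeq on GRCh38.p14. Intervals are 95% intervals, and floors cover counting error only because reads carry no molecular identifiers.

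The members and lists were chosen with earlier results of these data known. The genes named are the 9 members, other subunits that were called or had a mean of at least 1000, called genes of the adhesion and ligand lists, the 2 genes of each sublist with the highest mean, and for 4 members the 3 genes most alike with a mean of at least 100. COL5A1, LAMC3, VTN, SPP1, LRRC32, NRROS, ITGA2B, ITGA8, ITGAD, ITGAL, ITGAM, ITGAX and CD3E are not analysed here, and a gene that this rule names is not reported here. Alternatives were quantile normalization, rescaling to a common total, pseudocounts of 0.5 and 10, no filter or a minimum mean of 50, limma without trend, the replicate block, edgeR 4.0.16 (quasi-likelihood, TMM) and DESeq2 1.42.0 on recovered reads, a length and GC correction, adjusted p under 0.1, each sample left out in turn and, chosen after seeing the data, the canonical transcript length. Python 3.11.15, pandas 2.3.3, scipy 1.17.1 and matplotlib 3.10.9 were used.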

Additional observations from a re-analysis of the deposited data

How the results depend on the processing

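Of 807 log2 fold changes of 45 named genes under 18 settings, 723 kept their direction and their side of the threshold, 25 passed newly, 50 no longer passed and 9 changed sign. All genes called numbered 1076, but 2112 with DESeq2, 1706 at an adjusted p under 0.1 and 453 to 2474 when a sample was left out. Of the 9 integrin genes 2 were called, and 5 with DESeq2 (ITGA2, ITGA3, ITGB1, ITGB5 and ITGB8), 1 with limma without trend (ITGB8), 4 at an adjusted p under 0.1, 3 after quantile normalization or rescaling to the same total (ITGA2 added) and 0 to 2 when a sample was left out, with 0 without sample 1 with growth factors or without depleted sample 2 or 3. The other subunits called were 3, or 6 with DESeq2 and 1 to 5 with a sample left out, the adhesion proteins 6, or 10 with DESeq2 and 3 to 8, and the ligand genes 12, or 16 with DESeq2 and 7 to 15. Fewer samples in these fits give fewer degrees of freedom. The sign changed for ITGB4, to 0.09 without sample 3 with growth factors and 0.04 without depleted sample 3 (range -0.54 to 0.09), and for TNS3, to 0.04 with DESeq2, 0.07 with edgeR, 0.08 after quantile normalization, 0.03 after rescaling and 0.16 to 0.35 without sample 3 with growth factors or depleted sample 2 or 3 (range -0.49 to 0.35). For ITGB1 to ITGA3 the difference was -0.01 to -0.23 in 4 fits that left out a sample, within a range of -0.23 to 0.72. The ITGB8 share without growth factors was 9.53% by merged exons and 11.8% by the canonical transcript. With the replicate number as a block the same 2 integrin genes passed. Same-numbered samples of the groups had correlations of -0.073, -0.283 and -0.323 in their deviations from the group means. With 3 samples in each group these correlations cannot decide whether the numbers pair the samples. The values of ITGA11, ITGB3, LIMS2 and FBN2 in the samples with growth factors rest on 0 to 6 reads.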
